A study of Mus musculus with 9 samples.

Results

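Hmgcs1, Sqle, Fdft1, Idi1, Insig1, Srebf2 and Lss are genes of cholesterol synthesis and of its control, and they were followed through 9 mouse liver tumors. They were chosen by name as 7 of the 52157 genes that the tumor tables name, and the value of a gene in a tumor is the sum over the entries that name it. None of the 7 is itself a receptor or carrier of cholesterol uptake, and the uptake genes come from a separate list below. The tumors were grown from Hepa1-6 cells, a mouse hepatoma line, by implanting pieces of subcutaneous tumor into the left liver lobe of male C57BL/6 mice bought at 6 to 8 weeks of age. All animals were injected intraperitoneally every 4 days for 5 times, from day 10 to day 26, and tumors were taken on day 27 without the surrounding tissue. There were 3 tumors of mice given PBS, 3 anti-PD-1 antibody-nonresponsive tumors, which were the largest under the antibody, and 3 anti-PD-1 antibody-responsive tumors, which were the smallest. Tumors of intermediate size were left out by the authors, so the antibody groups are the ends of a range of tumor sizes, and tumor size and response cannot be told apart.

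Cholesterol is built from acetyl-CoA by a chain of enzymes in the cytosol and endoplasmic reticulum, and the liver is among its main sites of synthesis. Srebf2 encodes SREBP2, the transcription factor that switches the enzymes on when membranes hold little sterol. INSIG proteins hold SREBP2 and its escort SCAP in the endoplasmic reticulum while sterol is plentiful, and Insig1 is itself a target of SREBP2. Of the enzymes, Hmgcs1 makes HMG-CoA at the entry of the mevalonate pathway, Idi1 isomerises isopentenyl diphosphate, Fdft1 joins farnesyl units into squalene, Sqle oxidises squalene and Lss closes the ring to lanosterol.

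Promoters are shown because SREBP proteins act with the factor NF-Y at the promoters of such genes. The RefSeq promoter table (build GRCm38.p6) held 5 of the 7 members. The 250 bases before the start of each gene are given 5′ to 3′, and the capitals mark matches to the sterol regulatory element as TCACNCCAC and to the NF-Y box as CCAAT, on either strand, so that an NF-Y box on the opposite strand reads ATTGG.
Hmgcs1, chr13:119690101-119690350, plus strand: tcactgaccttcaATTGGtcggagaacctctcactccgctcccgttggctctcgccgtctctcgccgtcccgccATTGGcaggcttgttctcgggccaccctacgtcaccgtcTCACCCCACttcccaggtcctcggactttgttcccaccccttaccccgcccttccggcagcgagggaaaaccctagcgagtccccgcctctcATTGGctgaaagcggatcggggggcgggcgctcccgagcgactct
Idi1, chr13:8885356-8885605, plus strand: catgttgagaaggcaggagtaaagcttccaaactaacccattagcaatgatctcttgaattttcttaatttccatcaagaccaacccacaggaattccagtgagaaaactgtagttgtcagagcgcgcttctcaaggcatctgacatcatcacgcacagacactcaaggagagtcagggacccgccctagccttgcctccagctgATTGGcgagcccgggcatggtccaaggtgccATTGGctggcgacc
Insig1, chr5:28071162-28071411, plus strand: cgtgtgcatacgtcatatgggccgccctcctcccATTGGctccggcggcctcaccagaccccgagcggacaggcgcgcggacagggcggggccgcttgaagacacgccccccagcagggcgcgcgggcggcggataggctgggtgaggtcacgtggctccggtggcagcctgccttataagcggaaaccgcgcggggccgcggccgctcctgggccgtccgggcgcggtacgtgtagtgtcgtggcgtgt
Lss, chr10:76531355-76531604, plus strand: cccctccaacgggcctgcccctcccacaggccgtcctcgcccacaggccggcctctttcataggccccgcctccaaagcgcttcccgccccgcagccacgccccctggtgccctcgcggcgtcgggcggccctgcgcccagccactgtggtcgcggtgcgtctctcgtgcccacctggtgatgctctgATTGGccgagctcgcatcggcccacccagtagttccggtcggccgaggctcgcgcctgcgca
Srebf2, chr15:82147019-82147268, plus strand: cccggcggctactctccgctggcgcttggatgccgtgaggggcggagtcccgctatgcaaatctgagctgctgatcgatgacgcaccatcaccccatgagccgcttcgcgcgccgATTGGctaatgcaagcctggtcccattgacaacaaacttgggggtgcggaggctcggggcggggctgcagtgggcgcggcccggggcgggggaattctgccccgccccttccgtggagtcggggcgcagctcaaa
All 5 promoters held an NF-Y box, which 33.8% of all 32851 promoter windows of this length hold, and in each of them it lay on the strand opposite to the gene. Only Hmgcs1 had a match to TCACNCCAC, at bases 137 to 129 before the start, and 1.05% of all windows have one. The GC box GGGCGG, searched on both strands and not marked, was found in all 5 and in 32.7% of all windows. These matches are descriptions of the sequence and not of binding.

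The level of a gene is given as FPKM, fragments scaled by transcript length and by the mapped fragments of the tumor, as the authors deposited it for each tumor. Hmgcs1 was highest, with a mean of 45.4 ± 22.3 FPKM (SD, n = 9 tumors), followed by Insig1 at 34.0 ± 19.3, Idi1 at 32.3 ± 16.3, Srebf2 at 27.1 ± 3.46, Sqle at 19.02 ± 4.18 and Lss at 6.20 ± 2.51. FPKM is scaled by length, which puts these levels on 1 scale, but the entries were assembled separately in each tumor. Over the 5 neighbouring pairs of this order, Hmgcs1 exceeded Insig1 in 8 of 9 tumors (exact sign-flip test on log2 values, two-sided, p = 0.0117, adjusted p = 0.0195), while Srebf2 exceeded Sqle, and Sqle exceeded Lss, in 9 of 9 (exact sign-flip test, p = 0.00391, adjusted p = 0.00977 each). The levels of Insig1 and Idi1 (exact sign-flip test, p = 0.969) and of Idi1 and Srebf2 (exact sign-flip test, p = 0.652) were not separated within tumors. The pairs were picked by the order in these same 9 tumors, which come from 3 groups. These p-values are therefore a description and no independent support for the order. The authors' group values for Idi1 were 29.1, 50.2 and 58.7 FPKM in PBS, nonresponsive and responsive tumors, above its means here of 20.0, 33.8 and 43.2. In those group values Idi1 was above Insig1 (19.1, 43.2 and 56.8), the reverse of the order of means given here.

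Fdft1 was listed at 0 in all 9 tumors, in PBS tumor 2 in an entry shared with Neil2, and is therefore left out of every comparison below. Srebf2 shared its entry with Gm49502 in responsive tumor 1, and the other 5 members were named alone in every tumor. Entries without a gene name made up 19.2% to 81.5% of all FPKM summed in a tumor, with 70.4% to 73.2% in the nonresponsive group and 21.0% to 55.1% in the responsive one. Depth is unknown, since the tables hold no fragment counts. As a guide to precision, the interval that the authors' software gave was 86.7 to 95.9 FPKM for Hmgcs1 in responsive tumor 3 and 1.91 to 5.02 for the low Lss in PBS tumor 1. No 2 tumors were duplicates, with correlations of log2 values from 0.576 to 0.904.

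Hmgcs1, the entry enzyme, stood at 23.6, 25.9 and 40.8 FPKM in PBS tumors 1 to 3, at 64.8, 46.5 and 33.4 in nonresponsive tumors 1 to 3 and at 55.7, 26.3 and 91.3 in responsive tumors 1 to 3. The highest tumor had 3.87 times the level of the lowest, and responsive tumor 2 lay among the PBS tumors. Idi1 stood at 12.2, 18.97 and 28.7 FPKM in PBS, at 43.8, 34.7 and 22.7 in nonresponsive tumors and at 47.5, 19.6 and 62.4 in the responsive group, a range of 5.10 times. It placed the tumors in nearly the same order as Hmgcs1, with PBS tumor 1 lowest and responsive tumor 3 highest. Insig1, the sterol-regulated anchor of SREBP2, ranged most, by 6.54 times, from 9.20, 18.6 and 22.8 FPKM in PBS through 55.8, 32.1 and 22.7 in nonresponsive to 59.4, 25.6 and 60.2 in responsive tumors. All 3 responsive tumors were above all 3 PBS tumors for Insig1, while nonresponsive tumor 3 lay within the PBS range.

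The later enzymes and the transcription factor varied less or in another order. Sqle, the squalene epoxidase, was at 17.4, 12.7 and 21.9 FPKM in PBS, at 17.4, 20.0 and 25.8 in nonresponsive tumors and at 16.7, 15.6 and 23.7 in the responsive group, and its highest tumor was nonresponsive tumor 3, which was the lowest nonresponsive tumor for Hmgcs1, Idi1 and Insig1. Lss, the lanosterol synthase, was at 3.46, 7.30 and 4.84 FPKM in PBS, at 7.33, 5.65 and 5.31 in nonresponsive tumors and at 5.88, 4.06 and 11.9 in the responsive group, with responsive tumor 3 highest and the other 8 between 3.46 and 7.33. Srebf2 itself spanned the least, 1.59 times, with 25.2, 26.1 and 28.5 FPKM in PBS, 25.99, 30.1 and 29.2 in nonresponsive tumors and 25.97, 20.5 and 32.6 in the responsive group. Its lowest and its highest value were both in the responsive group.

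**Figure D1:**
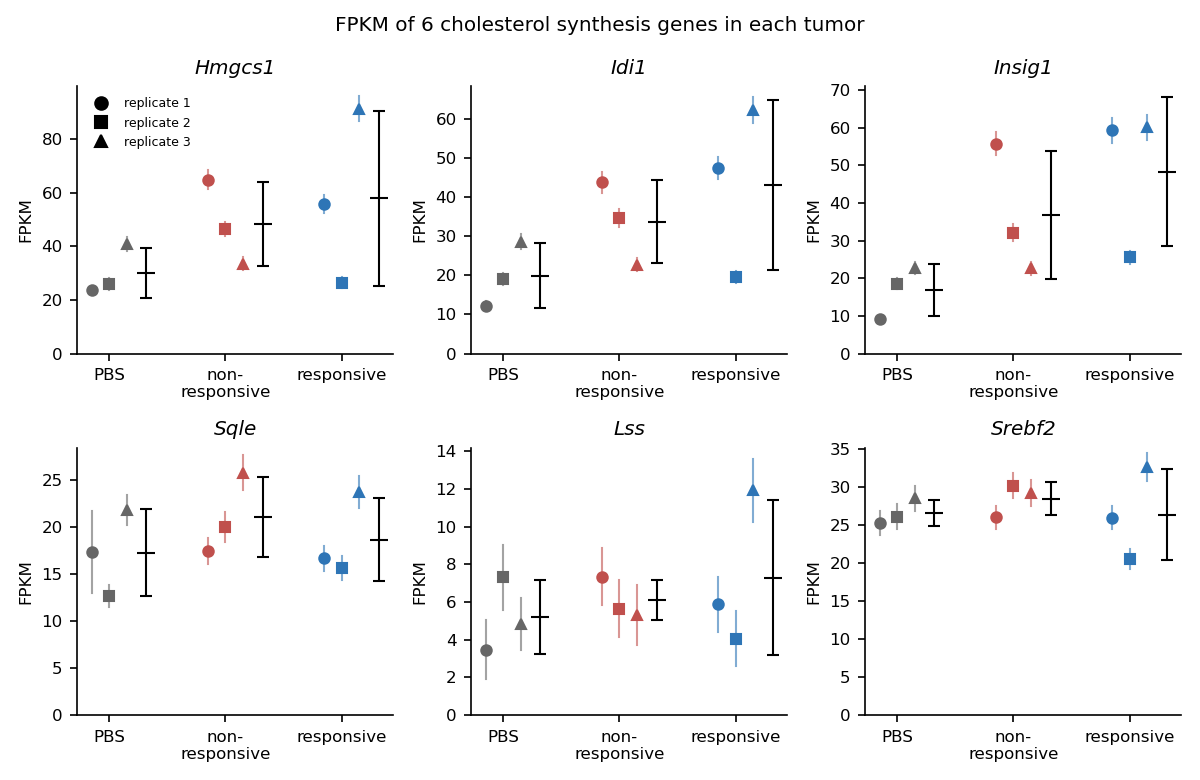
FPKM (y axis, linear from 0) of 6 members in 3 PBS, 3 nonresponsive and 3 responsive tumors (x axis); symbols are replicates with the authors' software interval as a thin line, and the black bar is the mean ± SD of 3 tumors. Hmgcs1, Idi1 and Insig1 spread from a low in PBS tumor 1 to a high in responsive tumor 3, while Srebf2 stays between 20.5 and 32.6 FPKM.

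The study asked how tumors that responded to the antibody differ from those that did not, and the members showed no difference that could be called. Differences are given on the log2(FPKM + 1) scale, which understates changes of low genes, from limma over all genes with at least 1 FPKM in 3 of the 6 tumors compared. In responsive over nonresponsive tumors, Insig1 differed by 0.38 (95% interval −0.78 to 1.54), Idi1 by 0.25 (−0.95 to 1.44), Hmgcs1 by 0.14 (−1.09 to 1.37), Lss by 0.12 (−0.81 to 1.05), Srebf2 by −0.13 (−0.67 to 0.42) and Sqle by −0.17 (−0.78 to 0.44). Of the 6 members tested, 0 had an unadjusted limma p-value under 0.05 and 0 an adjusted one, where 5.49% and 0.116% of the 13837 genes tested did, and the members' limma p-values lay between 0.453 and 0.793. None of the 6 separated the groups without overlap, which 10.5% of genes did, 5.78% with responsive tumors higher and 4.75% with them lower. The median of the members was 0.13 and that of all genes −0.066. The intervals reach 1 or more on the log2 scale for Insig1, Idi1, Hmgcs1 and Lss, so these tumors cannot show whether a difference of that size exists. The signs of Hmgcs1 and Idi1 rest on single tumors: without responsive tumor 3 they were at −0.27 and −0.089, and without nonresponsive tumor 3 at −0.096 and −0.0057. Srebf2 turned to 0.034 without responsive tumor 2, and Lss to −0.26 without responsive tumor 3.

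Against PBS, Insig1 was the only member called at an unadjusted p-value under 0.05, and it was not called after adjustment. It was higher in responsive than in PBS tumors, at 48.4 ± 19.7 against 16.9 ± 6.96 FPKM (SD, n = 3 each), a log2 difference of 1.46 (standard error 0.47, 95% interval 0.28 to 2.63), higher in 3 of 3 responsive tumors than in any PBS tumor (limma, adjusted p = 0.281). Its two-sided exact permutation test gave p = 0.1, and 3 against 3 tumors can reach no smaller value. This is 1 of 6 members called higher at an unadjusted p-value under 0.05, where 17.2% of the 13844 genes tested were called, 8.47% higher and 8.75% lower. It is also 1 of 6 without overlap, where 28% of all genes were, 11.6% with responsive tumors higher and 16.4% with them lower. With Benjamini-Hochberg adjustment 0 of 6 passed, and 0.231% of all genes did. Idi1 had 43.2 ± 21.7 against 20.0 ± 8.26 FPKM (log2 difference 1.01, limma, adjusted p = 0.328) and Hmgcs1 57.8 ± 32.5 against 30.1 ± 9.36 (0.79, limma, adjusted p = 0.388). Lss at 0.35, Sqle at 0.11 and Srebf2 at −0.034 differed by less than their standard errors of 0.42, 0.27 and 0.21. The Insig1 call was lost without PBS tumor 1 (1.09), responsive tumor 1 (1.26) or responsive tumor 3 (1.25). Hepatocyte markers, described below, were higher in the same responsive tumors, and in a fit of all 9 tumors with their level as a covariate Insig1 differed by 0.096 and was not called. Without responsive tumor 2 the count was 3 of 6, with Hmgcs1 at 1.26, Idi1 at 1.48 and Insig1 at 1.85. The share of all genes called in that fit was not computed.

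In nonresponsive over PBS tumors 0 of 6 members were called, where 3.23% of the 13798 genes tested had an unadjusted p-value under 0.05 and 0.0797% an adjusted one. Insig1 was at 36.9 ± 17.0 against 16.9 ± 6.96 FPKM (SD, n = 3 each), a log2 difference of 1.08 (95% interval −0.053 to 2.204, limma, adjusted p = 0.717). Idi1 differed by 0.76 (−0.19 to 1.71), Hmgcs1 by 0.65 (−0.17 to 1.47), Sqle by 0.29 (−0.37 to 0.94), Lss by 0.23 (−0.47 to 0.93) and Srebf2 by 0.092 (−0.30 to 0.48). The groups overlapped for each of these 6, and 8.2% of all genes did not overlap, 3.23% with nonresponsive tumors higher and 4.97% with them lower. Leaving out PBS tumor 3 gave 2 called members, Idi1 (1.05) and Insig1 (1.33), and leaving out nonresponsive tumor 3 gave Hmgcs1 (0.89) and Insig1 (1.37). For these fits the share of all genes called was not computed. The comparisons with PBS share the 3 PBS tumors, so their results are not independent of each other. Whether the antibody groups differ was tested only by the comparison of responsive with nonresponsive tumors above.

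**Figure D2:**
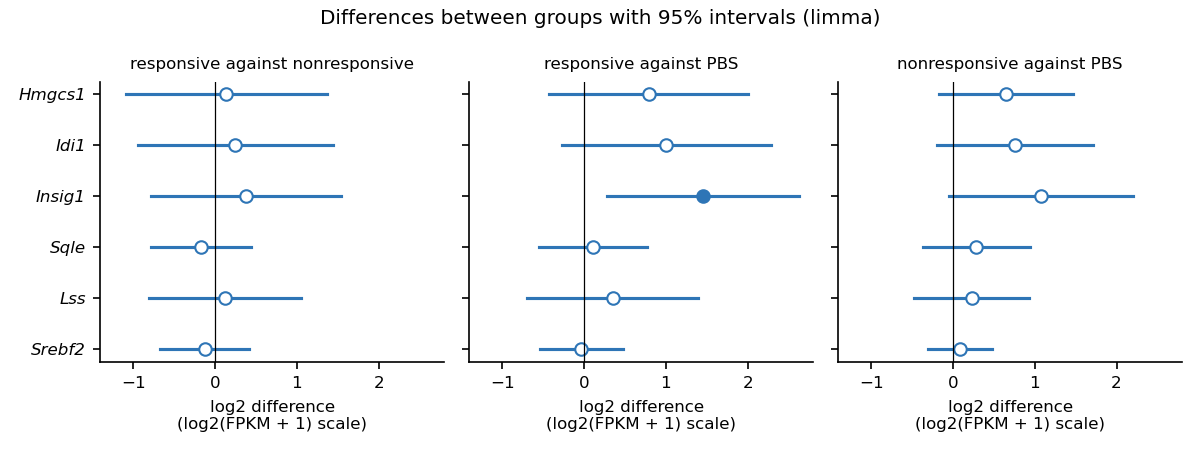
Log2 differences (x axis, log2(FPKM + 1) scale) of 6 members (y axis) in 3 comparisons, with 95% intervals from limma; a filled point has an unadjusted p-value under 0.05. Only Insig1 in responsive against PBS tumors, at 1.46, has an interval above 0.

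Hmgcs1, Idi1 and Insig1 went up and down together from tumor to tumor. Over 9 tumors on the log2 scale, Hmgcs1 and Idi1 had a Pearson r of 0.971 (exact permutation test, p = 2.76e-05, adjusted over the 15 pairs of members p = 4.13e-04) and a Spearman rho of 0.983 (exact permutation p = 4.96e-05, adjusted p = 7.44e-04). Idi1 and Insig1 had an r of 0.956 (exact permutation p = 1.27e-04, adjusted p = 9.51e-04) and a rho of 0.950 (exact permutation p = 3.53e-04, adjusted p = 0.00265). For Hmgcs1 and Insig1 r was 0.892 (exact permutation p = 0.00150, adjusted p = 0.00751) and rho 0.933 (exact permutation p = 7.50e-04, adjusted p = 0.00375). Without the 2 tumors farthest from the median these r were 0.977, 0.917 and 0.875, and after subtracting the mean of each group 0.963, 0.945 and 0.867. These later r were not tested, and the permutations above moved values across groups. The part of a shared makeup of cells in these correlations was not tested.

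Lss followed Hmgcs1 and Idi1 less closely, with r of 0.773 and 0.761 (exact permutation p = 0.0126 and 0.0153, adjusted p = 0.0458 each). Its rho of 0.733 and 0.700 had exact permutation p-values of 0.0311 and 0.0433 and adjusted ones of 0.0934 and 0.108. Without the 2 tumors farthest from the median of Hmgcs1 or Idi1 the r of Lss fell to 0.378 and 0.340. Leaving them out also narrows the range of those genes, so this cannot show what the r rests on. After subtracting the mean of each group the r of Lss was 0.751 and 0.748. Sqle had an r of 0.440, 0.354 and 0.193 with Hmgcs1, Idi1 and Insig1, none of which passed (exact permutation p = 0.235, 0.348 and 0.620), and its closest member was Srebf2 (r = 0.683, exact permutation p = 0.0402, adjusted p = 0.0862). Srebf2 had an r of 0.599 with Hmgcs1 (exact permutation p = 0.0847), 0.527 with Idi1 and 0.290 with Insig1. After subtracting the mean of each group these r were 0.739, 0.704 and 0.462.

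**Figure D3:**
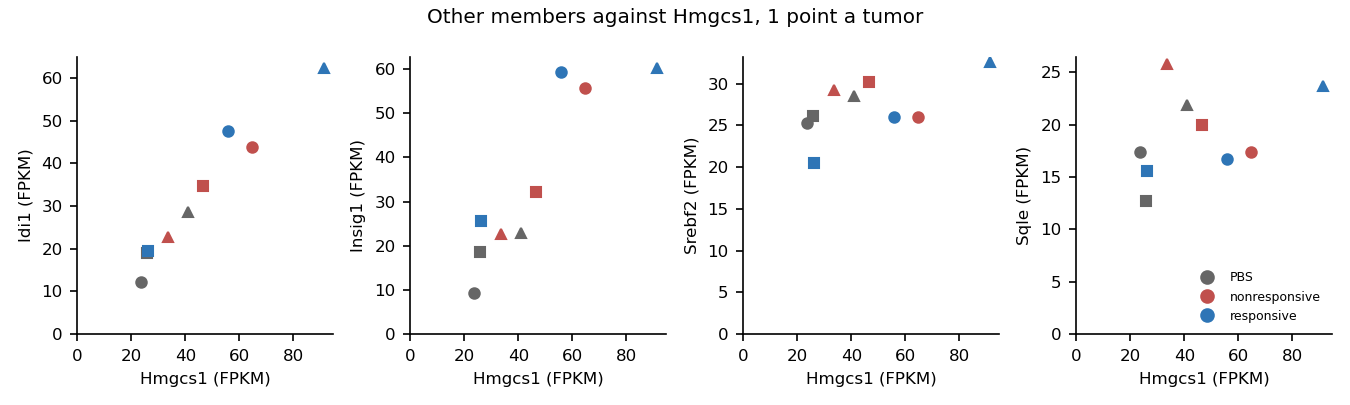
FPKM of Idi1, Insig1, Srebf2 and Sqle (y axes) against Hmgcs1 (x axes), 1 point for each of 9 tumors, colored by group with symbols for replicates as above. Idi1 and Insig1 climb with Hmgcs1 in all groups (r of 0.971 and 0.892 on the log2 scale), and Sqle scatters (r of 0.440).

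The genes whose pattern over the 9 tumors was most like the members' mean z-score (each member's log2 value, centred and scaled over the tumors) were ranked among 5431 genes with at least 5 FPKM in every tumor and named alone. Msmo1, the sterol methyl oxidase acting after lanosterol, was first with r = 0.954 and rho = 0.967, from 18.5 to 52.4 FPKM. Rdh11, a retinol dehydrogenase, followed with r = 0.919 from 7.22 to 17.7 FPKM, Lpxn, a leupaxin adaptor of leukocytes, with r = 0.912 from 10.1 to 21.8, Scd1, the stearoyl-CoA desaturase of lipid synthesis, with r = 0.892 from 43.3 to 502 and Dapp1, a signaling adaptor, with r = 0.889 from 5.26 to 16.0. These are descriptions over 9 tumors, which also share their groups and their makeup of cells.

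Of 38 other cholesterol genes measured, 15 are further enzymes of synthesis. From lanosterol to cholesterol, 9 of 10 genes had a higher mean in responsive than in PBS tumors and 4 were called higher at an unadjusted p-value under 0.05, where 8.47% of all genes were, with a median log2 difference of 0.63 against −0.11 over all genes. The sterol isomerase Ebp had 63.2 ± 4.86 against 41.2 ± 7.62 FPKM (SD, n = 3 each, 0.62, limma, adjusted p = 0.281) and Sc5d, the lathosterol oxidase, 63.7 ± 26.03 against 29.5 ± 9.11 (1.03, limma, adjusted p = 0.289). Tm7sf2, a sterol reductase whose entry also holds Vps51, Zfpl1 and Gm28374, had a log2 difference of 0.43 (limma, adjusted p = 0.281). Of the 10, 0 were called in responsive over nonresponsive tumors, where 5.49% of all genes were (median 0.26 against −0.066 over all genes). In nonresponsive over PBS tumors 0 were called as well, where 3.23% of all genes were (median 0.48 against −0.057 over all genes).

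Of the mevalonate and squalene steps beside the members, 5 of 6 listed genes were measured. Fdps, the farnesyl diphosphate synthase, whose entry also holds Rusc1 and Gm43738, was the highest at 106 FPKM over 9 tumors and had 132 ± 44.99 in responsive, 113 ± 34.9 in nonresponsive and 72.3 ± 17.7 in PBS tumors (SD, n = 3 each), with a log2 difference of 0.83 in responsive over PBS tumors (limma, adjusted p = 0.289). Acat2, the thiolase that feeds the pathway, was the 1 gene of this list called in responsive over PBS tumors (3.47, limma, adjusted p = 0.286), where 17.2% of all genes were. Its entry was joined with Acat3 and Mrpl18 in nonresponsive tumor 1 and responsive tumors 1 and 3, the 3 tumors with 88.6, 114 and 109 FPKM, and it was joined with Acat3 and listed at 0 in PBS tumor 3 and nonresponsive tumor 3, so its level cannot be told apart from how entries were joined.

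Of 5 genes of SREBP control, Insig2, the second INSIG protein, was higher in responsive than in nonresponsive tumors, at 38.6, 28.1 and 35.4 against 21.4, 21.5 and 21.2 FPKM, without overlap (log2 difference 0.63, standard error 0.19, limma, adjusted p = 0.885). It was 1 of 5 called higher there, where 4.05% of all genes were, and 1 of 5 higher without overlap, where 5.78% were. Its PBS tumors lay across both groups at 32.6, 20.2 and 27.5 FPKM. Mbtps2, a protease that releases SREBP from the membrane and shares its entry with Yy2, was lower in responsive than in PBS tumors at 5.60 ± 1.72 against 11.0 ± 2.48 FPKM (SD, n = 3 each, −0.87, limma, adjusted p = 0.281). It was 1 of 5 called lower there, where 8.75% of all genes were. With Mbtps1, 2 of 5 were lower without overlap, where 16.4% were. Srebf1, at 41.0 FPKM the most abundant of the 5, and Mbtps1, at 30.9 FPKM, the other protease, were not called in any comparison, and neither was Scap.

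The list of uptake and transport genes had median log2 differences of −0.12 in responsive over nonresponsive, 0.018 in responsive over PBS and 0.27 in nonresponsive over PBS tumors. Of its 8 genes, 1 was called higher and 1 lower in responsive over PBS tumors, where 8.47% and 8.75% of all genes were. In responsive over nonresponsive tumors 1 was called lower, where 1.44% of all genes were, and 2 were lower without overlap, where 4.75% were. In nonresponsive over PBS tumors 1 was called higher, where 1.51% of all genes were. Scarb1, the HDL receptor, was higher in responsive than in PBS tumors at 48.3 ± 9.005 against 31.2 ± 6.27 FPKM (SD, n = 3 each, 0.62, limma, adjusted p = 0.283). Npc2, a lysosomal sterol carrier at 239 FPKM, and Lipa, the lysosomal lipase at 54.3 FPKM, were the most abundant of the 8 and were not called.

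Genes of storage, efflux and the LXR receptors had a median log2 difference of 0.90 in responsive over PBS tumors, with 9 of 10 at a higher mean and 4 called higher, where 8.47% of all genes were. In nonresponsive over PBS tumors the median was also 0.90, with 9 of 10 at a higher mean. Of the 10, 1 was called higher there, where 1.51% of all genes were. In responsive over nonresponsive tumors the median was 0.12, with 5 of 10 at a higher mean. There 0 were called, where 5.49% of all genes were. Abcg5, a subunit of the sterol exporter of the canalicular membrane, was at 0.047, 1.17 and 1.22 FPKM in PBS, 3.28, 2.56 and 1.62 in nonresponsive tumors and 7.36, 3.21 and 4.92 in the responsive group. It was called in responsive over PBS tumors (1.79, limma, adjusted p = 0.281) and in nonresponsive over PBS tumors (0.99, limma, adjusted p = 0.717). Its partner Abcg8 (1.54) and Cyp7a1, the rate-limiting enzyme of bile acid synthesis (1.61), were called in responsive over PBS tumors, each with a limma adjusted p of 0.281. Nr1h3, which encodes LXR-alpha, was called too (4.66, limma, adjusted p = 0.281), but it was listed at 0 in PBS tumors 2 and 3 and nonresponsive tumor 2 and always shared its entry with Gm13783 and in most tumors with Madd. Nr1h2, LXR-beta at 49.9 FPKM, and Abca1 at 40.1 FPKM were the most abundant and were not called. Over all 38 genes, 10 were called higher and 2 lower in responsive over PBS tumors, where 8.47% and 8.75% of all genes were, 1 higher and 1 lower in responsive over nonresponsive tumors, where 4.05% and 1.44% of all genes were, and 2 higher in nonresponsive over PBS tumors, where 1.51% were. With adjustment 0 of 38 passed in each comparison.

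**Figure D4:**
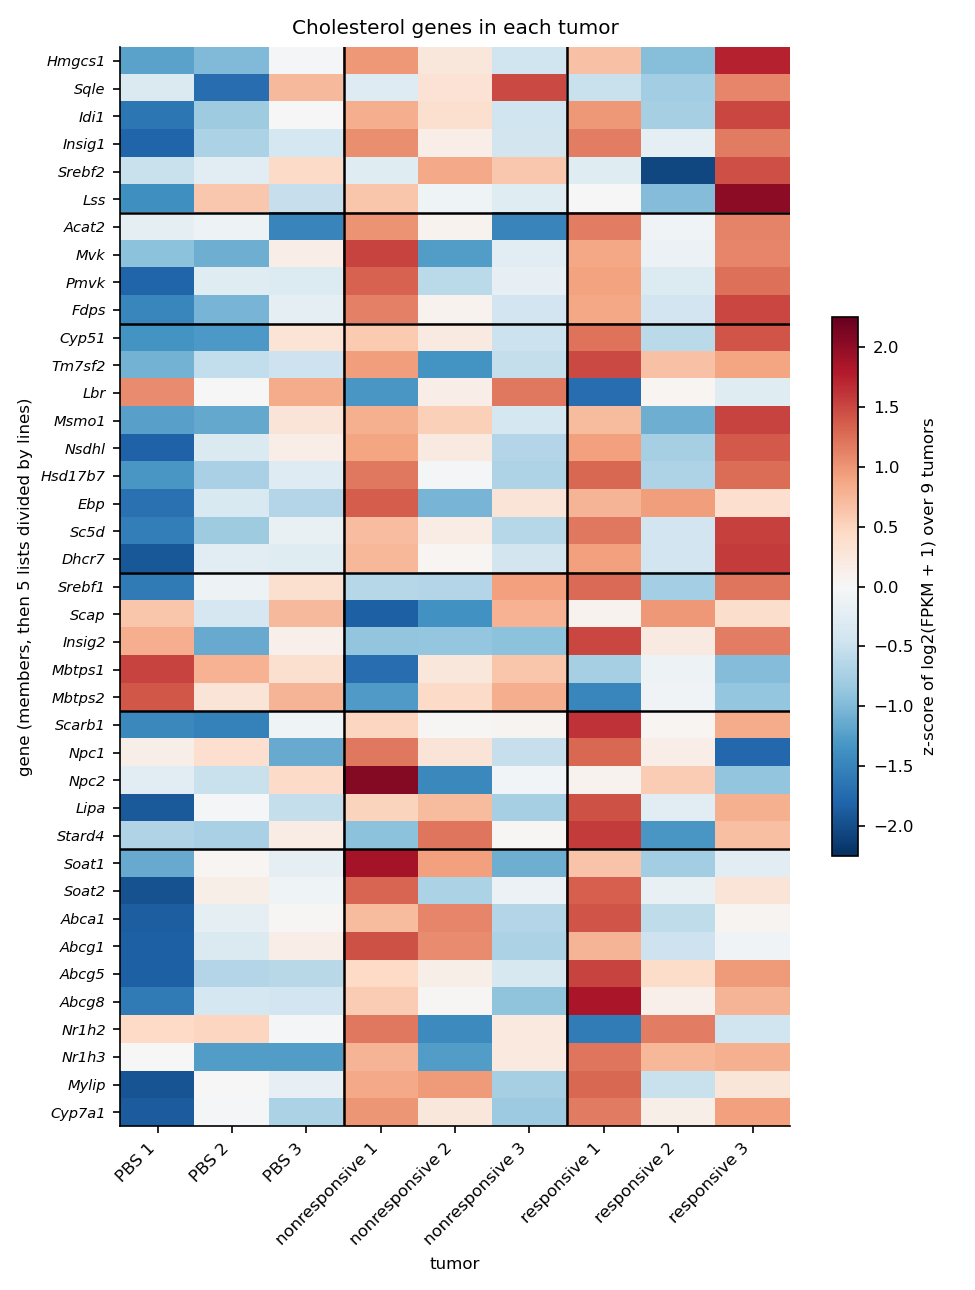
Z-scores of log2(FPKM + 1) over the 9 tumors (color, red above and blue below the gene's mean) for 6 members and 33 further cholesterol genes (rows, lists divided by lines) in each tumor (columns). Most synthesis genes are lowest in PBS tumor 1.

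Markers of cell types differed between the same tumors, and in bulk tumors fewer cells of a type and less RNA per cell cannot be told apart. Whether hepatocyte genes were expressed by the hepatoma cells or by liver cells of the host was not tested. The level of a marker list is the mean log2(FPKM + 1) of its genes. The 14 hepatocyte genes, led by Alb and Apoa1, were all above 0 in every tumor. Their level was 3.97 to 6.97 in PBS, 6.22 to 8.10 in nonresponsive tumors and 7.97 to 9.27 in the responsive group. In responsive over PBS tumors 14 of 14 had a higher mean and 11 were called higher, where 8.47% of all genes were. The hepatocyte level was lowest in PBS tumor 1, which was also lowest for Hmgcs1, Idi1, Insig1 and Lss. Responsive tumor 2, in contrast, had a hepatocyte level of 7.97, above every PBS tumor. Its mean z-score of the members was −0.95, below every tumor but PBS tumor 1. The 5 hepatoma markers had levels of 2.13 to 2.61 in PBS, 2.08 to 3.36 in nonresponsive tumors and 1.43 to 2.502 in the responsive group, with Dlk1 at 0 in responsive tumor 2, Afp from 0.321 to 56.5 FPKM and H19 from 2.87 to 39.3 over the 9 tumors.

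The 7 proliferation genes, led by Cdk1 and Birc5, had levels of 5.22 to 6.17 in PBS, 3.37 to 6.43 in nonresponsive tumors and 3.64 to 5.62 in the responsive group, lowest in nonresponsive tumor 1 and responsive tumor 1, which were both high for Idi1 and Insig1. Responsive tumor 3, the highest for Idi1 and Insig1, had a proliferation level of 4.99. The 8 macrophage genes, led by C1qb and Tyrobp, were at 6.08 to 7.11 in PBS, 7.01 to 8.10 in nonresponsive tumors and 6.67 to 7.68 in the responsive group. In nonresponsive tumor 2, which had the 8.10, C1qb and C1qc had the same value of 972 FPKM and may be 1 entry counted under both names. The 6 T cell genes, led by Cd3g and Cd3e, were at 2.60 to 4.38, 3.61 to 3.73 and 3.83 to 4.46, and the 4 B cell genes, led by Cd79b and Cd79a, at 0.395 to 3.83, 2.36 to 2.75 and 3.68 to 5.43 in the same order of groups, with 2 of the 4 at 0 in single tumors. The endothelial list, led by Pecam1 and Cdh5, was at 3.24 to 4.11, 3.51 to 4.52 and 3.60 to 4.29, and the fibroblast list, led by Dcn and Col3a1, at 8.08 to 8.96, 8.34 to 9.09 and 8.23 to 8.41. Pancreatic acinar genes such as Ctrb1 and Cela2a reached a level of 6.97 in nonresponsive tumor 2 and at most 0.039 elsewhere. Muscle genes such as Mylpf and Ckm reached 5.28 in nonresponsive tumor 3 and 3.73 in PBS tumor 1, against 0.160 to 0.861 in responsive tumors. The part of these cell types in the members' values was not tested, and the fit with the hepatocyte level cannot settle it for hepatocytes.

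**Figure D5:**
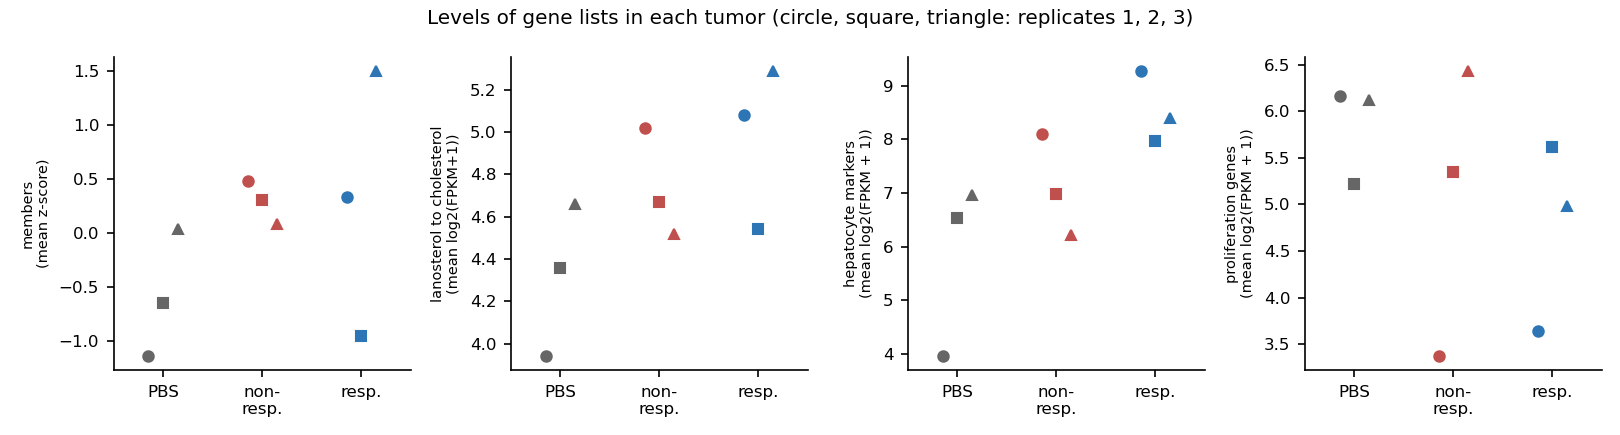
Mean z-score of 6 members, and mean log2(FPKM + 1) of 10 genes from lanosterol to cholesterol, 14 hepatocyte markers and 7 proliferation genes (y axes, not from 0), in 3 PBS, 3 nonresponsive and 3 responsive tumors (x axes), 1 point a tumor. Hepatocyte markers in responsive tumors, at 7.97 to 9.27, are above the PBS tumors. The members' mean z-score in responsive tumors overlaps both other groups. In nonresponsive tumors it is 0.084 to 0.48, above the PBS tumors at −1.14 to 0.033.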

How the data were processed

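Bulk RNA of 9 tumors was sequenced by the authors, and for each tumor they deposited a Cufflinks table with an FPKM per gene and its interval, from transcripts assembled in that tumor. The submitters' processing notes name Bowtie2 2.2.4, TopHat2 2.1.1 and the build mm8. Of 32189 Ensembl entries 3.29% lay at their GRCm38 position, so the files' build stayed unsettled and no position of theirs is printed. A further deposited table holds Cuffdiff fold changes, p-values and q-values of the groups, which were not used. It also holds the authors' group FPKM, given only for Fdft1, Idi1 and Insig1.

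Entries naming a gene were summed, genes with identical entries counted once, 19 names on several chromosomes and 13 genes with a failed estimate were left out, which gave 50387 genes. Groups came from the sample titles. The analysis used R 4.3.3 and limma 3.58.1 (eBayes with trend, two-sided) for each pair of groups, with log2(FPKM + 1) as the value, after a filter of at least 1 FPKM in 3 of 6 tumors, with Benjamini-Hochberg adjustment over all genes tested. The steps were tested on simulated data. Exact permutation tests and plots used Python 3.11.15, scipy 1.17.1 and matplotlib 3.10.9. Replicate numbers do not pair tumors.

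Named were all members, pathway genes with an unadjusted p-value under 0.05, the 2 most abundant genes of each list and the 5 most like the members, and Scap, outside this rule, was chosen after its values were seen. Some genes of the lists that met the rule are counted but not reported here by name. Members and lists were chosen with earlier results of these data known. Alternatives were other pseudocounts, filters and scalings, all tumors in 1 fit, a hepatocyte covariate, a replicate block, joined loci, a robust trend and leaving out each tumor.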

Additional observations from a re-analysis of the deposited data

Results flagged for a closer look

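Fdft1 was listed at 0 in each of the 9 tumors, yet the authors' table of group values, which enters no test between groups here, gave it 30.2 FPKM for the responsive, 22.1 for the nonresponsive and 15.3 for the PBS tumors. A signal in data outside the comparisons drew attention to it. These are the authors' group values with no spread, so the difference between groups was not tested, and the cause of the zeros was not tested.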

How the results depend on the processing

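FPKM tables without counts, 3 tumors a group and groups picked by tumor size limit every value, and p-values measure the spread between these tumors. Where a value changed, the cause was not tested. The share of all genes called was computed for the main fit only. Counts of called genes under the settings below therefore have no share beside them and cannot be read as particular to cholesterol genes. Rescaling to the sum of named entries turned Hmgcs1 to −0.062 and Lss to −0.060 in responsive over nonresponsive and Sqle to −0.032 in responsive over PBS tumors, and called 1 member in nonresponsive over PBS tumors (Insig1). Upper-quartile scaling turned Srebf2 to 0.0064 in responsive over PBS tumors and left 1 pathway gene called in responsive over nonresponsive tumors. With the hepatocyte covariate, responsive over nonresponsive values turned to −0.29 for Hmgcs1, −0.35 for Idi1, −0.34 for Insig1 and −0.17 for Lss, responsive over PBS values to −0.021 for Hmgcs1, −0.12 for Idi1 and −0.20 for Lss, and Lss in nonresponsive over PBS tumors to −0.027. It called 0 members in responsive over PBS tumors, and 5, 3 and 0 pathway genes in responsive over nonresponsive, responsive over PBS and nonresponsive over PBS tumors. A pseudocount of 0.1, a filter at 5 FPKM and no filter (dropping genes at 0 in every tumor) each called 1 pathway gene in nonresponsive over PBS tumors.

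Replicate numbers share only a number: correlations of same-numbered deviations ran from −0.394 to 0.475. The replicate block called 3 pathway genes in responsive over PBS and 0 in nonresponsive over PBS tumors.

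Leaving out each tumor in turn, called members ranged from 0 to 3 in responsive over PBS and 0 to 2 in nonresponsive over PBS tumors. Called pathway genes ranged from 3 (without responsive tumor 1) to 21 (without responsive tumor 2) in responsive over PBS, from 0 (without PBS tumor 1) to 3 (without PBS tumor 3) in nonresponsive over PBS and from 0, with responsive tumor 3 left out, to 5, with nonresponsive tumor 1 left out, in responsive over nonresponsive tumors. Responsive over nonresponsive values ranged from −0.27 to 0.61 for Hmgcs1, −0.089 to 0.72 for Idi1, −0.26 to 0.42 for Lss and −0.29 to 0.034 for Srebf2, and responsive over PBS values from −0.026 to 0.65 for Lss, −0.081 to 0.29 for Sqle and −0.19 to 0.13 for Srebf2.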
